A study of Mus musculus with 10 samples.

Results

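The cytosolic nucleic acid sensors described here are 6 mouse genes: Ifi204, Aim2, Zbp1, Ddx58 (also called Rigi), Ifih1 and Dhx58. They were represented by every probe set whose platform annotation named one of them and no other gene, which gave 11 of the 45037 probe sets apart from controls, and 6 of the 18193 genes with a probe set of their own. The rule reads gene names only, but the 6 genes were picked with earlier results of these data known, so counts of them describe these genes and are no independent evidence. Expression was measured on 10 Affymetrix arrays, 1 array per mouse, from whole hippocampi of female SJL/J mice obtained at 8 to 10 weeks of age. All 10 mice had an axonal lesion and were taken 2 days after it. In 5 mice the lesion was the only treatment (AxL), and the other 5 first received T cells specific for proteolipid protein, a major myelin protein, by adoptive transfer (TPlp+AxL). Neither group was free of the lesion, and neither received T cells of another specificity, so the comparison covers transfer of these T cells on top of a lesion. The values are RMA expression values on the log2 scale, where a difference of 1 is a doubling of the measured signal.

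Cytosolic sensors detect DNA or RNA that does not belong in the cytosol, whether from a virus, a damaged nucleus or a mitochondrion. Ifi204 and Aim2 are DNA-binding proteins of the PYHIN family: Ifi204 acts through the adaptor Sting1 towards type I interferon, and Aim2 assembles an inflammasome with Pycard and Casp1. Zbp1 binds nucleic acid in the Z conformation and engages Ripk3, upstream of the necroptosis effector Mlkl. Ddx58 (RIG-I) and Ifih1 (MDA5) detect double-stranded RNA and signal through Mavs, and Dhx58 (LGP2) is a relative that lacks the signalling domains and tunes the other two. Many of these genes are themselves induced by interferons, and in the brain microglia and infiltrating leukocytes are among the cells that express them.

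Promoter sequences of 3 of the 6 sensors (Aim2, Ddx58 and Ifih1) were in the RefSeq promoter table for GRCm38.p6. Ifi204, Zbp1 and Dhx58 had no entry there. The sequences are shown because these genes are known as interferon-inducible. Each is the 250 bases before the start site, 5′ to 3′ on the gene's strand, for Aim2 at chr1:173420354-173420603 (plus strand), for Ddx58 at chr4:40239826-40240075 (minus strand) and for Ifih1 at chr2:62646256-62646505 (minus strand). Capitals mark a match to the core of the interferon-stimulated response element, searched as GAAANNGAA on both strands.
Aim2: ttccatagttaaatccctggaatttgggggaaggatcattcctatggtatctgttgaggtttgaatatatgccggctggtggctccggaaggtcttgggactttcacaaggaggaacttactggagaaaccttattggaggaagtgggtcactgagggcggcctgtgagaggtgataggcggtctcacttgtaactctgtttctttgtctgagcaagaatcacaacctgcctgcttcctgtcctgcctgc
Ddx58: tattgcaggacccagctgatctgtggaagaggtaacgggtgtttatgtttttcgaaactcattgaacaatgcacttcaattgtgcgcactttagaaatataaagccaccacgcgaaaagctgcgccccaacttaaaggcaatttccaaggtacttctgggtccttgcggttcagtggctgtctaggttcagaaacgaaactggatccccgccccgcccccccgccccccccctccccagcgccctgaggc
Ifih1: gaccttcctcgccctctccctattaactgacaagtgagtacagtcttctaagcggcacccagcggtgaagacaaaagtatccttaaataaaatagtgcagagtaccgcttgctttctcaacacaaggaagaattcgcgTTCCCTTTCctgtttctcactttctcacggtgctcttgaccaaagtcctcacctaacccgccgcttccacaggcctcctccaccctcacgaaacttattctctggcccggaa
Matches also lay in 30-base windows after the start site, at chr4:40239796-40239825 for Ddx58 and at chr2:62646206-62646235 for Ifih1.
Ddx58, after the start: agtTTCGATTTCctatggccagccggctag
Ifih1, after the start: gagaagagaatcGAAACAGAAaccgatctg
The Ifih1 window held the letters at bases -112 to -104 on the opposite strand and at bases 33 to 41 on the gene's strand, counted from the start site. The Ddx58 window held them at bases 4 to 12 on the opposite strand, and the Aim2 window did not hold them. The core of the gamma-activated site, searched as TTCNNNGAA on both strands, was in none of the 3 windows of 250 bases before and 50 after the start. Of 32851 RefSeq windows of 300 bases, 8.56% held the first motif and 8.3% the second. A match to such a short motif describes the letters only.

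The arrays were alike in scale, with medians between 7.88 and 7.92. Hippocampal neuron markers averaged 11.07 to 11.34 over the 10 arrays, well above the array medians. AxL 3, AxL 5 and TPlp+AxL 1 stood apart by choroid plexus genes, a tissue that borders the hippocampus: the mean of 7 markers was 10.64, 9.73 and 9.81 in these arrays, and 8.39 to 8.52 in the other 7. The list means of monocyte, T cell and neutrophil markers moved with the transfer, though not every marker did. The mean of 3 monocyte markers was 8.47 to 8.73 in AxL and 9.81 to 10.29 in TPlp+AxL, and 2 of the 3 were higher. The mean of 7 T cell markers was 7.62 to 7.74 and 7.88 to 8.14, with 2 of 7 higher, and that of 4 neutrophil markers was 7.74 to 8.20 and 8.43 to 8.77, with 2 of 4 higher. Those 2 were S100a8 and S100a9, with log2 differences of 1.14 and 1.18, while Mpo (0.03) and Camp (-0.05) were not higher. Nor were Ccr2 (0.13) among the monocyte markers, and Cd4 (0.06) and Cd8a (0.02) among those of T cells. Here "higher" is by the limma test defined in the next paragraph, which 0.978% of all genes passed as higher by their brightest probe set. Microglia and macrophage markers overlapped, at 9.45 to 9.77 and 9.56 to 9.87, with 2 of 9 higher, and so did B cell markers, at 7.33 to 7.51 and 7.40 to 7.47, with 0 of 4 higher by limma (1 lower at an unadjusted p under 0.05). Every measured oligodendrocyte and endothelial marker had a negative difference, with median differences of -0.23 over 4 and -0.17 over 5 genes. None of these was lower by limma, though 3 of 4 and 3 of 5 were at an unadjusted p under 0.05. The same held for 2202 of all 18193 genes, and only 6778 of all genes had a positive difference. Negative medians were also seen for markers of astrocytes (-0.08, 1 of 6 positive) and hippocampal neurons (-0.12, 2 of 8 positive). The choroid plexus markers had a median of -0.33, with 0 of 7 positive. In whole tissue, more cells of a type and more RNA per cell cannot be told apart, and the part of these cells in the results on sensors was not tested.

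Among the 6 sensors, Ifi204 and Zbp1 rose in the mice that had received T cells, while no probe set of Aim2, Ddx58, Ifih1 or Dhx58 passed the test. The test was limma's moderated test at an adjusted p under 0.05 (Benjamini-Hochberg, over the 45037 probe sets), and "higher", "rose" and "passed" refer to it throughout. Of the 11 probe sets, 3 were higher (1 of Ifi204 and both of Zbp1), against 0.646% of all probe sets. None was lower, and 6 had a positive change with an unadjusted p under 0.05, against 6.54% of all probe sets. The same 3 had every TPlp+AxL array above every AxL array, which held for 1.94% of all probe sets. The change was positive in 10 of 11, with a median of 0.14 on the log2 scale, beside -0.0034 over all probe sets. When the 3 arrays with high choroid plexus genes were left out together, none of the 11 passed by limma, and only 1 probe set of all passed. Of the 11, 6 still had an unadjusted p under 0.05 in either direction, against 10.5% of all probe sets. In the main fit 6453 of the 45037 probe sets had such a p in either direction. With all 10 arrays and the choroid plexus mean as a covariate, 288 probe sets passed, among them the same 3 of Ifi204 (limma adjusted p = 0.0333) and Zbp1 (0.0426 and 0.0378).

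**Figure D1:**
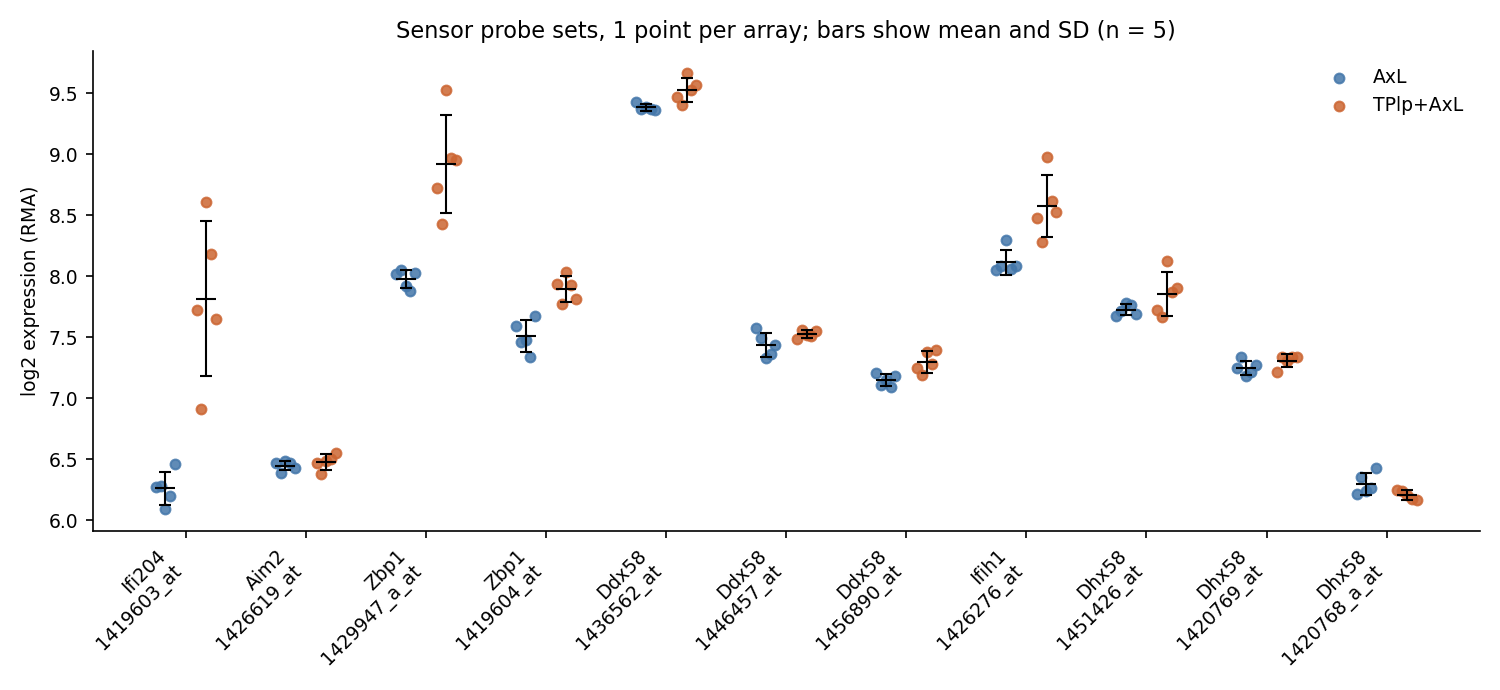
Log2 expression of the 11 sensor probe sets in 5 AxL and 5 TPlp+AxL mice; each point is 1 array, and bars show the mean and SD. The groups separate for Ifi204 and both Zbp1 probe sets and overlap for the other 8.

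Ifi204, the PYHIN sensor upstream of Sting1, had the widest difference of the 11. Its probe set 1419603_at read 6.28, 6.28, 6.09, 6.20 and 6.47 in AxL mice 1 to 5. In TPlp+AxL mice 1 to 5 it read 7.73, 6.91, 8.61, 8.18 and 7.65. The AxL mice lay close together near the dim end of the arrays, while the TPlp+AxL mice spread over a wide range, with mouse 2 lowest and mouse 3 highest, and the groups did not overlap. The means were 6.26 ± 0.14 and 7.82 ± 0.64 (SD, n = 5 each), a change of 1.55 (SE 0.25, 95% interval 1.02 to 2.09; limma adjusted p = 0.0132), or 2.94-fold. Leaving out any single array kept the change between 1.36 and 1.78 and the adjusted p at or below 0.047. With the 3 arrays high in choroid plexus genes left out, the change was 1.59 and the limma adjusted p was 0.244. By the mean over both groups, 20.0% of probe sets were at or below this one, a share that the TPlp+AxL values raise. Its AxL mean of 6.26 was lower than that of Aim2 (6.45), for which the share was 5.19%. RMA carries no call of presence, so the AxL level of Ifi204 may be partly background and the fold may understate the change. A further probe set, which lists Ifi204 together with 3 other genes and was therefore not counted, went from 6.01 to 6.95, a change of 0.94 (SE 0.14; limma adjusted p = 0.00963) that cannot be assigned to 1 gene.

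Aim2, the DNA sensor that builds an inflammasome, showed no comparable difference. Its only probe set, 1426619_at, read 6.47, 6.39, 6.49, 6.47 and 6.43 in AxL. It read 6.47, 6.38, 6.49, 6.50 and 6.55 in TPlp+AxL. The groups overlapped, though by small margins TPlp+AxL mice 3, 4 and 5 were above all AxL mice and mouse 2 was below them. The means were 6.45 ± 0.04 and 6.48 ± 0.06 (SD, n = 5 each), with a change of 0.03 (SE 0.04, 95% interval -0.06 to 0.11; limma adjusted p = 0.762). Since only 5.19% of probe sets had a mean at or below it, this probe set may sit near background, where a change in transcript would not be seen.

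Aim2 and Ifi204 lie in the same PYHIN gene cluster, with 9 annotated genes between them in RefSeq's order. From Aim2 to the far end of the cluster there are 19 annotated genes, 13 of them protein coding, of which 8 had a probe set of their own. Besides Aim2 and Ifi204, 3 of the other 6 were higher. Ifi202b, a PYHIN gene that differs between mouse strains, went from 7.74 ± 0.22 to 8.88 ± 0.46 (SD, n = 5 each), a change of 1.14 (SE 0.19; limma adjusted p = 0.0185), and its groups were apart. Ifi209, listed also as Pyhin1, changed by 0.85 (SE 0.11; limma adjusted p = 0.00362), while its second probe set changed by 0.18 (limma adjusted p = 0.104). Ifi207 changed by 0.57 (SE 0.09; limma adjusted p = 0.0161). The remaining 3 did not pass and are named after their values were seen: Mndal at 0.24 (limma adjusted p = 0.0725, groups apart), Ifi203 at 0.04 (limma adjusted p = 0.690) and Ifi213 at 0.04 (limma adjusted p = 0.708). Genes that rose and genes that did not pass stood side by side in the cluster. Mndal and Ifi213 were dim, with 2.65% and 6.52% of probe sets at or below their means. Like Aim2 they may sit near background, where a change in transcript would not be seen in full. In AxL alone the mean of Ifi204, which rose, was 6.26, between those of Mndal (6.15) and Ifi213 (6.52). PYHIN genes are close copies and their probes can detect more than 1 of them, in particular the Ifi202b probe set, whose name marks shared sequence. Ifi202b did not pass without AxL 1, AxL 3, TPlp+AxL 3, TPlp+AxL 4 or TPlp+AxL 5 (limma adjusted p between 0.0526 and 0.0642), and Ifi207 without TPlp+AxL 3 (0.0503) or TPlp+AxL 4 (0.0584).

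**Figure D2:**
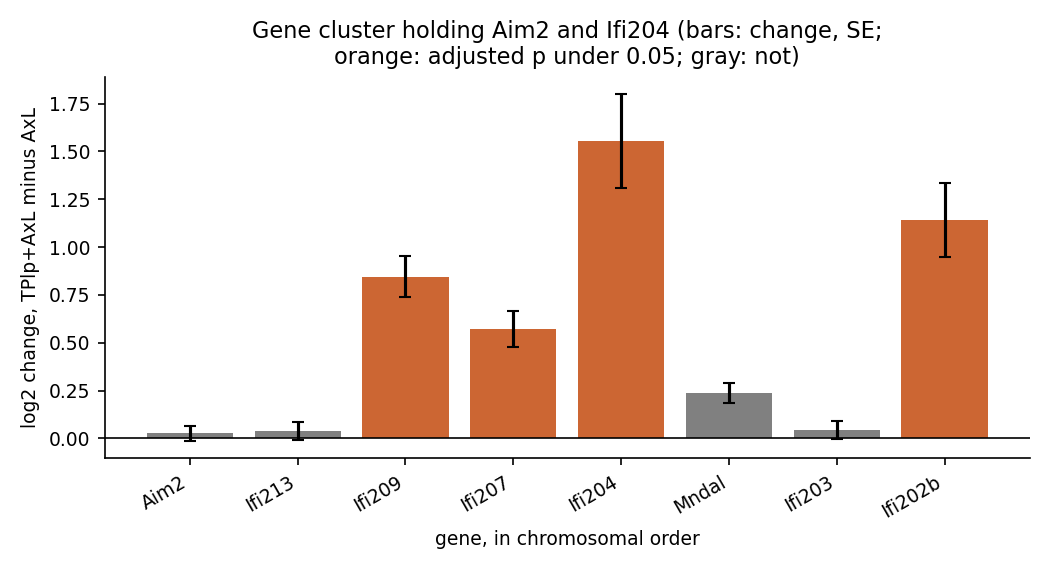
Log2 change (TPlp+AxL minus AxL, n = 5 each) of the 8 genes of the PYHIN cluster with their own probe set, in chromosomal order; bars start at 0, lines show SE, and orange marks a limma adjusted p under 0.05. Ifi209, Ifi207, Ifi204 and Ifi202b rose, between 0.57 and 1.55, while Aim2, Ifi213, Mndal and Ifi203 did not pass, at 0.03, 0.04, 0.24 and 0.04.

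Zbp1, the sensor of Z-form nucleic acid, rose on both of its probe sets. The brighter, 1429947_a_at, read 8.02, 8.05, 7.92, 7.88 and 8.03 in AxL. In TPlp+AxL it read 8.73, 8.43, 9.53, 8.97 and 8.95. Every TPlp+AxL mouse was above every AxL mouse, again with mouse 2 lowest and mouse 3 highest. The means were 7.98 ± 0.07 and 8.92 ± 0.41 (SD, n = 5 each), a change of 0.94 (SE 0.16, 95% interval 0.60 to 1.28; limma adjusted p = 0.0173), or 1.92-fold.

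The second Zbp1 probe set, 1419604_at, read 7.60, 7.46, 7.48, 7.34 and 7.68 in AxL. It read 7.94, 7.77, 8.03, 7.93 and 7.82 in TPlp+AxL. The groups were apart but near each other, with the lowest TPlp+AxL mouse just above the highest AxL mouse. The means were 7.51 ± 0.13 and 7.90 ± 0.10, a change of 0.39 (SE 0.07, 95% interval 0.24 to 0.54; limma adjusted p = 0.0225), or 1.31-fold. Subtracted within each array, the change of the brighter exceeded that of the second by 0.55 (SE 0.15). The exact two-sided permutation test over 252 relabellings gave p = 0.00794, the smallest it can give, and an adjusted p of 0.0132 over 5 such comparisons, of which that of Ifi204 with Aim2 is not read because both can lie near background. The 2 probe sets thus gave the same direction and different sizes. Both calls were close to the threshold. The brighter did not pass without AxL 5 (limma adjusted p = 0.0522), TPlp+AxL 4 (0.0604) or TPlp+AxL 5 (0.0532), and the second did not pass without AxL 3 (0.0643), TPlp+AxL 1 (0.0568), TPlp+AxL 3 (0.0628) or TPlp+AxL 4 (0.0789). With 1 array left out, the change of the brighter stayed between 0.79 and 1.06 and that of the second between 0.34 and 0.43. Without the 3 arrays high in choroid plexus genes the changes were 0.99 (limma adjusted p = 0.249) and 0.42 (0.21).

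**Figure D3:**
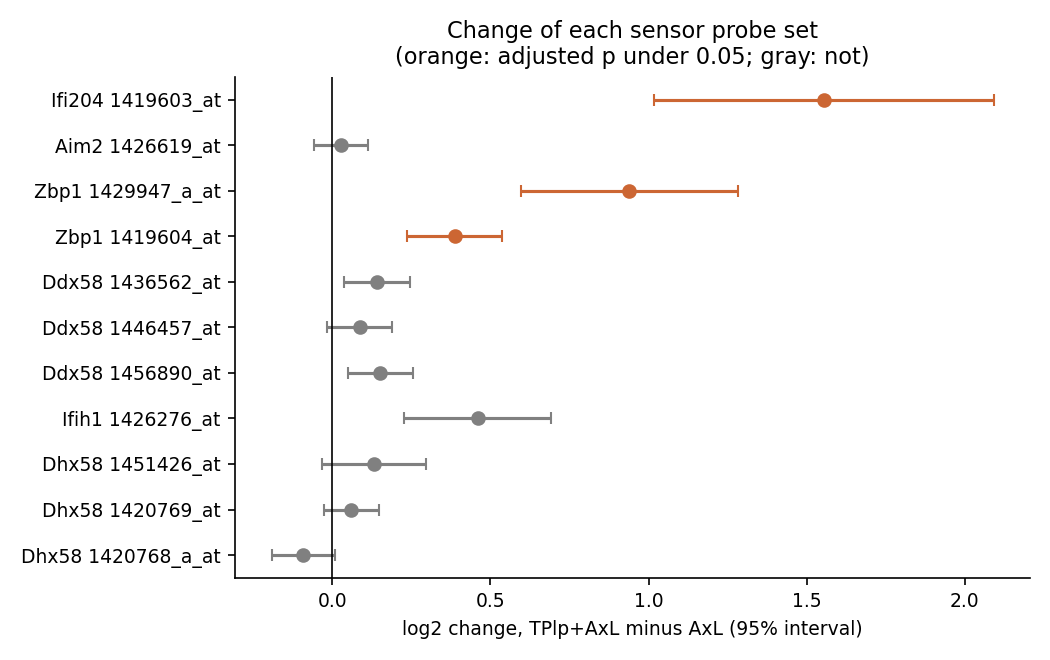
Log2 change of each sensor probe set (TPlp+AxL minus AxL, n = 5 each) with its 95% interval from limma; orange marks a limma adjusted p under 0.05. Ifi204 (1.55) and Zbp1 (0.94 and 0.39) are orange; the Ifih1 interval runs from 0.23 to 0.69, above 0, though its adjusted p is 0.0817.

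No RNA helicase passed the test, and Ifih1 had the largest difference of the 3. Ifih1 (1426276_at), the sensor of long double-stranded RNA, read 8.06, 8.09, 8.30, 8.06 and 8.08 in AxL. In TPlp+AxL it read 8.48, 8.28, 8.98, 8.62 and 8.52. Of the TPlp+AxL mice, 4 of 5 were above all AxL mice, and mouse 2 was just under AxL 3, the highest of its group. The means were 8.12 ± 0.10 and 8.58 ± 0.25 (SD, n = 5 each), a difference of 0.46 (SE 0.11, 95% interval 0.23 to 0.69; limma adjusted p = 0.0817), or 1.37-fold, which did not pass. Single arrays bore on this value: without TPlp+AxL 2 the difference was 0.53 and passed (limma adjusted p = 0.0314), and without AxL 3 it was 0.50 and did not (0.0988). AxL 3 is also the array with the highest mean of choroid plexus genes, and the Ifih1 difference was 0.48 with the choroid plexus mean as a covariate (limma adjusted p = 0.132) and 0.53 without the 3 arrays high in these genes (0.335).

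Ddx58, the RIG-I gene, had 3 probe sets, none of which passed. The brightest, 1436562_at, read 9.43, 9.37, 9.39, 9.37 and 9.36 in AxL. It read 9.47, 9.40, 9.67, 9.52 and 9.57 in TPlp+AxL. The AxL mice were nearly identical, and 4 of 5 TPlp+AxL mice were above all of them. The means were 9.38 ± 0.03 and 9.53 ± 0.10 (SD, n = 5 each), a difference of 0.14 (SE 0.05, 95% interval 0.04 to 0.25; limma adjusted p = 0.221). The probe set 1456890_at gave 7.15 ± 0.05 and 7.30 ± 0.09, a difference of 0.15 (limma adjusted p = 0.187), also with 4 of 5 mice above all AxL mice. The third, 1446457_at, gave 7.44 ± 0.10 and 7.53 ± 0.03, a difference of 0.09 (limma adjusted p = 0.424) with overlapping groups. The 3 differences were small and of the same sign. The interval of the brightest ended at 0.25, which bounds the mean difference of that probe set only.

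Dhx58, the LGP2 gene, also had 3 probe sets and none passed. The brightest, 1451426_at, read 7.68, 7.71, 7.78, 7.76 and 7.69 in AxL. It read 7.72, 7.67, 8.13, 7.87 and 7.91 in TPlp+AxL. TPlp+AxL mice 3, 4 and 5 were above all AxL mice, and mice 1 and 2 were within the AxL range or below it. The means were 7.73 ± 0.05 and 7.86 ± 0.18 (SD, n = 5 each), a difference of 0.13 (SE 0.07, 95% interval -0.03 to 0.30; limma adjusted p = 0.439). The other two differed by 0.06 (1420769_at, from 7.25 ± 0.06 to 7.31 ± 0.05; limma adjusted p = 0.504) and by -0.09 (1420768_a_at, from 6.30 ± 0.09 to 6.21 ± 0.04; limma adjusted p = 0.379). The last is among the dimmest on the arrays, with 2.46% of probe sets at or below its mean, and it was the only one of the 11 with a negative difference.

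Set against each other within arrays, the difference of Ifih1 exceeded that of Ddx58 by 0.32 (SE 0.09; exact two-sided permutation p = 0.0159, adjusted p = 0.0199 over the 5 comparisons). It exceeded that of Dhx58 by 0.33 (SE 0.06; exact two-sided permutation p = 0.00794, adjusted p = 0.0132). Ddx58 and Dhx58 differed by 0.01 (SE 0.04; exact two-sided permutation p = 0.825, adjusted p = 0.825). The difference of the Ifih1 probe set was therefore larger than those of the brightest Ddx58 and Dhx58 probe sets, although it did not pass the test over all probe sets. The 2 probe sets of Zbp1, a single gene, were 0.55 apart in the same comparison. A gap between probe sets of different genes thus cannot be read as a difference between the genes.

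**Figure D4:**
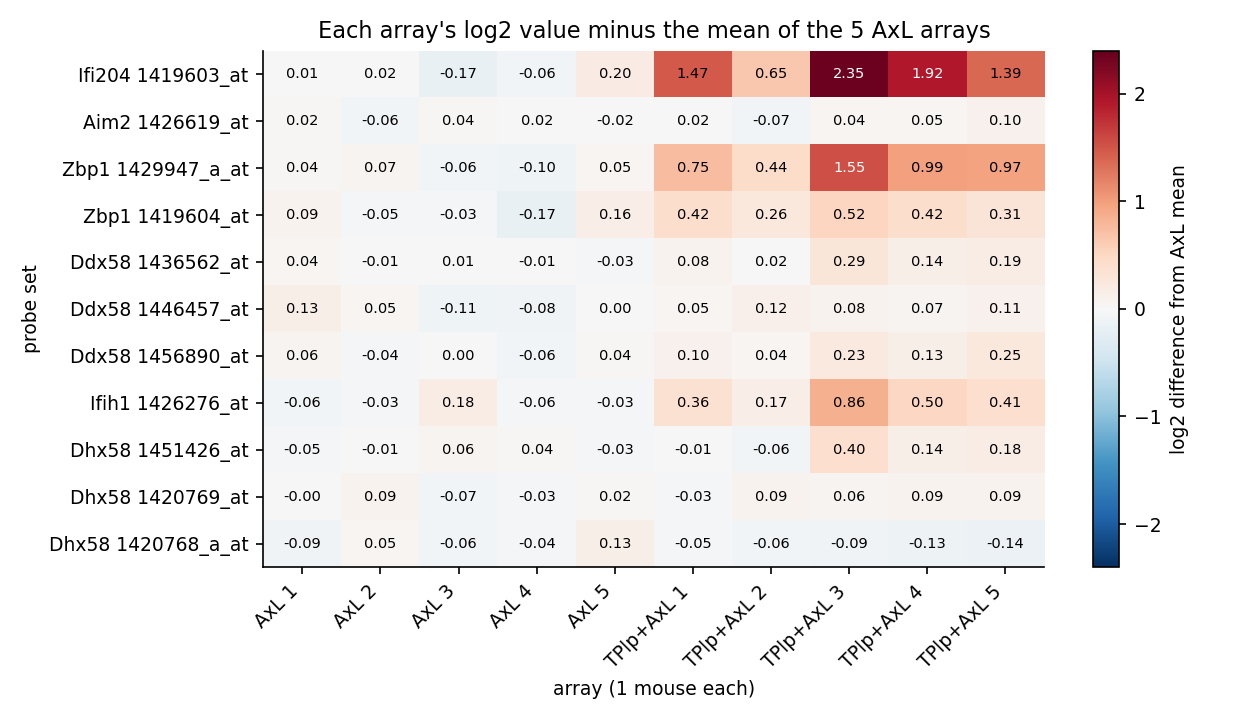
Each array's log2 value of each sensor probe set minus the mean of the 5 AxL arrays, in colour and in figures; columns are arrays and rows are probe sets. Among the TPlp+AxL mice, Ifi204, Zbp1 and Ifih1 are smallest in mouse 2 and largest in mouse 3. So are the brightest probe sets of Ddx58 and Dhx58, and the Aim2 row stays near 0.

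The TPlp+AxL mice were ordered alike for several sensors. TPlp+AxL 2 was the lowest of its group in 8 of the 11 probe sets, against 23.4% of all probe sets, and TPlp+AxL 3 was the highest in 6 of 11, against 17.7% of all. Averaged over the 11 probe sets, the distance from the AxL mean was 0.29, 0.15, 0.57, 0.39 and 0.35 in TPlp+AxL mice 1 to 5. The monocyte marker mean was highest in TPlp+AxL 3 and lowest in TPlp+AxL 5, and the T cell marker mean was highest in TPlp+AxL 3 and lowest in TPlp+AxL 1. Mouse 3 was thus at the top for the sensors and for both of these lists, while mouse 2 was the lowest for the sensors and for neither list. The means of the neutrophil markers and of the microglia and macrophage markers were lowest in TPlp+AxL 2 and highest in TPlp+AxL 1.

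The closest profiles to those of the sensors that rose were sought among all genes, as the root-mean-square difference over the 10 arrays after each profile was centred on its own mean. For Ifi204 they were Psmb9 (0.194), a subunit of the immunoproteasome, Gbp3 (0.198), a guanylate-binding protein, Cxcl9 (0.208), a chemokine, Gm4951 (0.212) and Cxcl11 (0.214), another chemokine. Their own changes lay between 1.42 (Gbp3) and 1.87 (Cxcl9), and all passed, with limma adjusted p between 0.00257 (Cxcl9) and 0.0209 (Psmb9). For Zbp1 they were Ccl5 (0.0992), a chemokine of T cells and myeloid cells, Ifi209 (0.132), Rtp4 (0.141), Tap1 (0.143), the peptide transporter, and Cd74 (0.152), the invariant chain of MHC class II. Of these, Ccl5 changed by 0.88 (limma adjusted p = 0.0126), Ifi209 by 0.85 (0.00362) and Tap1 by 0.73 (0.0343), while Rtp4, at 0.90 (0.0971), and Cd74, at 0.99 (0.0556), did not pass. Among the sensors themselves the closest profiles were Ddx58 and Dhx58, at 0.0636, and those furthest apart were Ifi204 and Aim2, at 0.858. Ifi204 and Zbp1 were 0.365 apart. The measure compares sizes as well as shapes, so 2 flat profiles are close by construction. In the same way, a gene close to Ifi204 or Zbp1 has a similar change largely by construction. The changes and calls of these genes therefore only describe them and are no independent evidence. Psmb9, Gbp3 and Gm4951 did not pass without AxL 5, TPlp+AxL 4 or TPlp+AxL 5, nor Psmb9 without AxL 1 (limma adjusted p between 0.0519 and 0.0734 in these cases). Tap1 passed without TPlp+AxL 2 or TPlp+AxL 3 and not without any other array (0.0531 to 0.0928). With the choroid plexus covariate, neither Psmb9 (0.0512) nor Tap1 (0.0777) passed. Without TPlp+AxL 2, Rtp4 (0.0103) and Cd74 (0.0108) passed, and Cd74 also passed without TPlp+AxL 3 (0.0419).

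The surrounding pathway was described by 5 lists, each gene by its brightest probe set, against 0.978% of all genes higher and a median change of -0.03 over all genes. The list of other cytosolic sensors and effectors had 25 measured genes of 33, of which 4 (16%) were higher, with a median change of 0.17. None was lower by limma, with 0 lower at an unadjusted p under 0.05. They were the PYHIN genes Ifi202b, Ifi209 and Ifi207 and Samhd1, a nucleotide hydrolase that limits reverse transcription, which went from 9.26 ± 0.04 to 9.67 ± 0.11 (change 0.41, SE 0.05; limma adjusted p = 0.00301). Of the other 4 Samhd1 probe sets, 2 passed, at 0.71 and 0.40, and 2 did not, at 0.15 and 0.07. Cgas, the DNA sensor that makes the messenger for Sting1, differed by 0.17 (SE 0.05; limma adjusted p = 0.189) and by 0.01 on its second probe set. The count was 2 without TPlp+AxL 3 or without TPlp+AxL 4, and 6 without TPlp+AxL 2.

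Among adaptors, kinases and transcription factors, 22 of 23 were measured and 3 (13.6%) were higher, with a median change of 0.06. None was lower by limma, with 0 lower at an unadjusted p under 0.05. Sting1, the adaptor of Ifi204 and Cgas, went from 8.14 ± 0.04 to 8.52 ± 0.12 (change 0.37, SE 0.06; limma adjusted p = 0.00963), and its second probe set changed by 0.79 (limma adjusted p = 0.00565). Mavs, the adaptor of the RNA helicases, differed by -0.09 (SE 0.04; limma adjusted p = 0.374) and by 0.09 on its second probe set. Thus Sting1 rose on both probe sets, while those of Mavs did not pass and had opposite signs. Irf1, an interferon-induced transcription factor, rose from 9.33 ± 0.03 to 10.29 ± 0.34 (change 0.96, SE 0.13; limma adjusted p = 0.00644). Irf8, a transcription factor of myeloid cells, changed by 0.65 (SE 0.11; limma adjusted p = 0.0204) with overlapping groups and by 0.37 on its second probe set (limma adjusted p = 0.00956). The call of the brighter Irf8 probe set was lost without any 1 of AxL 1, AxL 3, AxL 5, TPlp+AxL 1, TPlp+AxL 3, TPlp+AxL 4 or TPlp+AxL 5, with limma adjusted p between 0.0506 and 0.0733.

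The list of inflammasome and cell death genes holds partners of Aim2 and Zbp1 and also other genes, such as Nlrp3 and Casp4. It had the largest share, with 5 of 13 measured genes (of 17 listed) higher, or 38.5%, and a median change of 0.27. None was lower by limma, with 0 lower at an unadjusted p under 0.05. Il1b, the cytokine that Casp1 matures, rose from 7.62 ± 0.04 to 8.73 ± 0.30 (change 1.11, SE 0.12; limma adjusted p = 0.00171). Casp4, the caspase of the non-canonical inflammasome, changed by 0.72 (SE 0.06; limma adjusted p = 0.00081), and Casp1 by 0.48 (SE 0.07; limma adjusted p = 0.00648). Mlkl, which permeabilises the membrane in necroptosis, changed by 0.30 (SE 0.05; limma adjusted p = 0.0185), and Gsdmd, the pore former of pyroptosis, by 0.27 (SE 0.05; limma adjusted p = 0.0315). Pycard, the adaptor between Aim2 and Casp1, differed by 0.50 (SE 0.13; limma adjusted p = 0.115) and by 0.13 and 0.08 on its other probe sets, none of which passed. Pycard passed without TPlp+AxL 2, at 0.61 (limma adjusted p = 0.0219), and whether its change differs from that of Casp1 was not tested. The count was 3 without AxL 1, TPlp+AxL 4 or TPlp+AxL 5. Gsdmd did not pass in these 3 fits or without AxL 2 or AxL 3 (limma adjusted p from 0.0596 to 0.0828), nor with the choroid plexus covariate (0.0708). Mlkl did not pass in the same 3 fits or without AxL 5 or TPlp+AxL 3 (0.0529 to 0.0642).

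Endosomal sensors had 9 measured genes of 10, and Myd88, the adaptor of most Toll-like receptors, was the 1 that rose (11.1%), by 0.38 (SE 0.06; limma adjusted p = 0.0142). The list's median change was 0.02, and none was lower by limma, with 1 lower at an unadjusted p under 0.05. Without TPlp+AxL 4 the Myd88 change was 0.35 and did not pass (limma adjusted p = 0.0508). Interferons, their receptors and STAT factors had 16 measured genes of 18, and Ifngr1, a chain of the interferon gamma receptor, was the 1 that rose (6.25%), by 0.21 (SE 0.04; limma adjusted p = 0.0367). The list's median change was 0.09, and none was lower by limma, with 0 lower at an unadjusted p under 0.05. With 1 array left out, Ifngr1 passed without AxL 3 or TPlp+AxL 2, and in the other 8 such fits its limma adjusted p was 0.0587 to 0.124. Ifnb1, the type I interferon towards which Ifi204 and the helicases signal, went from 7.04 ± 0.07 to 7.10 ± 0.10, a difference of 0.07 (SE 0.05; limma adjusted p = 0.582) with overlapping groups. Only 21.1% of probe sets had a mean at or below that of Ifnb1. It may lie partly in background, where a change in transcript would not be seen in full. All 5 lists had 0 genes past the threshold by limma when the 3 arrays high in choroid plexus genes were left out together, and 4, 3, 4, 1 and 1 with the choroid plexus mean as a covariate.

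**Figure D5:**
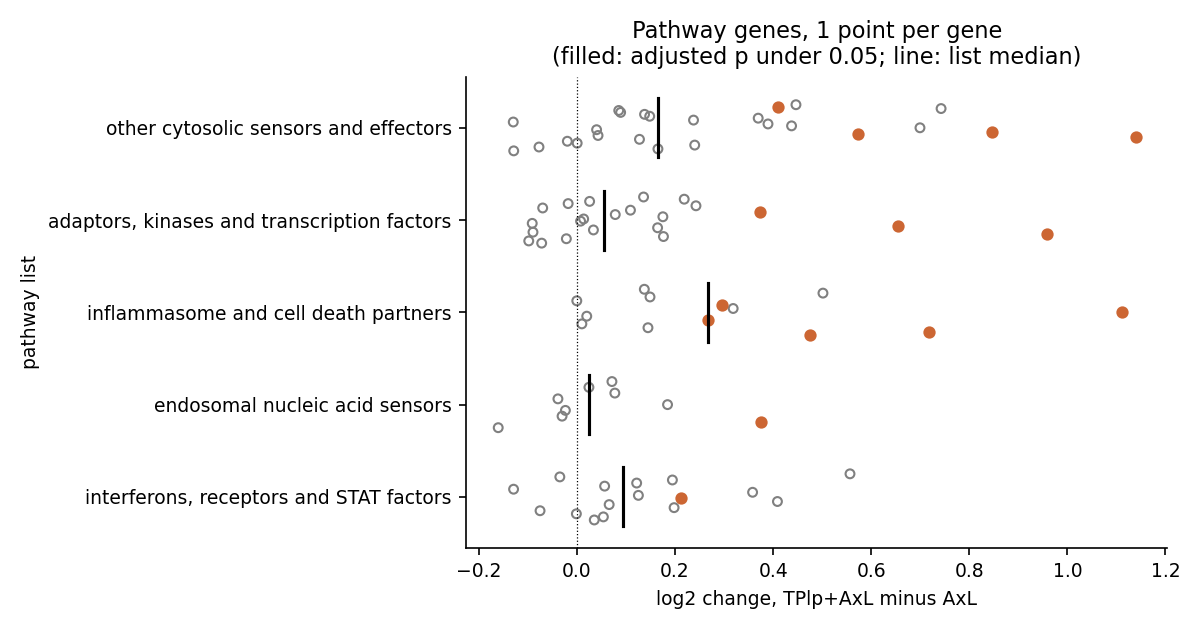
Log2 change (TPlp+AxL minus AxL, n = 5 each) of every measured gene of 5 pathway lists, 1 point per gene by its brightest probe set; filled points have a limma adjusted p under 0.05 and vertical lines are list medians. The inflammasome and cell death list has 5 filled points of 13 and the median furthest to the right, at 0.27; the endosomal list has 1 of 9 and a median of 0.02.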

How the data were processed

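The deposited log2 values came from RMA, as the submitters' processing notes name it. Which program and version ran it is not given in the sources used. RMA gives no detection calls and pulls dim signals together. The 64 control probe sets were left out and 45037 tested with no filter or further normalization, by limma 3.58.1 (lmFit, eBayes) in R 4.3.3 with Benjamini-Hochberg adjustment. Platform symbols were updated through Entrez identifiers with RefSeq's GRCm38.p6 table (34741 of 34945 matched); a gene's brightest probe set represents it. The labels do not say how mice were allocated, and p-values measure the spread between these 10 mice. The analysis was tested on simulated data.

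The members and lists were chosen with earlier results of these data known. Named genes were all members; from each pathway list up to 5 passing genes with the largest change, plus Ifnb1, Mavs, Sting1, Cgas and Pycard; and the 5 closest profiles of each passing member. Same-numbered mice did not deviate together in every pair, so the groups were compared unpaired.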

Additional observations from a re-analysis of the deposited data

Results flagged for a closer look

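In 8 of the 82 groups of 5 arrays examined, 1 mouse stood apart from its group, by a gap to its nearest neighbour, as a share of the group's range, above 0.71; chance gives about 1 in 20. Among the sensors, Ifih1 in AxL 3 was at 8.30 with the other AxL mice at 8.06 to 8.09 (share 0.864), and Dhx58 probe set 1420769_at in TPlp+AxL 1 was at 7.22 with the others at 7.31 to 7.34 (0.738). TPlp+AxL 2 was low for 4 pathway genes: Ifi202b at 8.08 with the others at 8.95 to 9.19 (0.786), Ifi207 at 6.76 with the others at 7.19 to 7.36 (0.721), Irf8 at 8.95 with the others at 9.48 to 9.57 (0.864) and Sting1 at 8.30 with the others at 8.54 to 8.60 (0.801). Gsdmd in TPlp+AxL 3 was at 8.06 with the others at 7.84 to 7.88 (0.845). Myd88 in AxL 4 was at 8.73 with the others at 8.52 to 8.56 (0.808).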

How the results depend on the processing

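Of 836 values of single probe sets and genes under alternatives, 0 changed sign, 723 kept their side of the threshold, 97 lost their call and 16 gained one. The change is the same by construction with a trended and robust variance, dim probe sets left out, the replicate block or the 0.10 threshold. Its sign could not differ in those fits. All 376 called probe sets became 757 at an adjusted p under 0.10, 753 with array weights and 241 with the replicate block, and 185 to 460 with 1 array left out (185 without TPlp+AxL 4, 220 without AxL 5, 240 without TPlp+AxL 3, 243 without TPlp+AxL 5). The split into higher and lower, 291 and 85, was 269 and 210 with each array's median subtracted, 348 and 43 with cyclic loess and 340 and 66 with quantile normalization. Leaving out AxL 3, AxL 5 and TPlp+AxL 1 together, chosen after seeing the data, left 1 probe set (4743 with an unadjusted p under 0.05); fewer arrays lower the power, and the cause was not tested. The choroid plexus mean as a covariate, planned, left 288 probe sets and the same 3 sensor calls.

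The 3 calls among the sensors became 1 with the dimmer 50% of the probe sets left out, where Ifi204 and the second Zbp1 probe set were not tested, and 0 without those 3 arrays. They were 1 to 4 with 1 array left out, 1 being without TPlp+AxL 4. The numbers of the mice do not pair them (same-number correlations from -0.22 to 0.36). With the replicate block 2 sensor probe sets passed, Ifi204 and Ifih1 (limma adjusted p = 0.0391), and Zbp1 did not (0.0553 and 0.0771).

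The pathway counts with 1 array left out were 2 to 6 for other cytosolic sensors, 2 to 4 for adaptors, 3 to 6 for inflammasome partners, 0 to 1 for endosomal sensors and 0 to 4 for interferons and receptors. All 5 were 0 without the 3 arrays. In that fit 15 of 25, 7 of 22, 9 of 13, 2 of 9 and 7 of 16 had a positive change and an unadjusted p under 0.05. No share over all genes was counted for this, so these counts are not read as a result. Over all probe sets, 10.5% had such a p in either direction. With the dimmer 50% left out, other sensors and inflammasome partners had 2 each. For interferons and receptors the count of 1 became 2 at an adjusted p under 0.10 and with the mean of all probe sets of a gene, and 0 with the median subtracted, with the dimmer 50% left out, with a trended and robust variance or with the replicate block. Dim probe sets (Aim2, Ifi204 in AxL, 1 of Dhx58, Ifnb1, and in the PYHIN cluster Mndal and Ifi213) limit what can be seen there.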
